A study of Caenorhabditis elegans with 2 samples.

Results

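The regions described here were those at snoRNA and snRNA genes in a ChIP-seq experiment on UNC-120, a muscle transcription factor related to serum response factor, in Caenorhabditis elegans embryos. A region belonged to the set when its summit lay within 200 bp of an annotated snoRNA or snRNA gene and was more than 300 bp from every tRNA gene. The set held 234 of 29995 nuclear regions in the authors' ranked list from both replicates pooled. Of these 234, 98 were also in the authors' IDR list, which keeps regions by their irreproducible discovery rate (IDR), a measure of whether they rank alike in replicates. That is 41.9% (Wilson 95% interval 35.7 to 48.3), where 9.82% of all nuclear regions were in the IDR list. Regions in that list are called reproducible below. In effect the list was close to a cut on the pooled score, since 185 was both its cut-off and the highest score outside it.

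All chromatin came from 1 group with 2 biological replicates. The worms were strain OP659, with the unc-119(tm4063) III allele and the transgene insertion wgIs659, which gives UNC-120 a GFP-FLAG tag at its C terminus. Embryos of mixed stage, pooled male and female, were collected 3 h after bleaching. Sonicated chromatin of the whole organism was precipitated with an antibody to GFP, so muscle and other cells cannot be told apart, and the fusion protein comes from a transgene. A possible control experiment is named in the labels and was not used here, and depth is unknown because the lists hold no read counts. Intervals on shares therefore cover the number of genes or regions and nothing else.

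Small nucleolar RNAs (snoRNAs) guide chemical modification of ribosomal and spliceosomal RNA, and small nuclear RNAs (snRNAs) are the RNA core of the spliceosome. Nematodes also make spliced leader RNAs, which are joined to the 5′ ends of many messenger RNAs. Some snoRNA genes stand alone and others sit in introns of protein-coding hosts, and in worms many of the latter have promoter elements of their own. Transfer RNA genes are transcribed by RNA polymerase III from an A box and a B box inside the gene. Genes for snRNAs, most of them transcribed by RNA polymerase II and some by polymerase III, have a proximal sequence element upstream.

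Sequences upstream of 13 genes are shown first. They were picked to show 2 kinds of letters found before part of the called genes, so they are neither the strongest genes nor a fair sample of them, and 36 of the 80 called snoRNA genes had neither kind. Each line gives the 85 bases before a gene and its first 10 bases, on the gene's strand, from the RefSeq genome of assembly WBcel235, which is ce11. In the snoRNA genes of the first set, capitals mark a B box (GTTCNANNC) and an A-box-like word (TGGCNNA) that GTTC follows within 20 to 75 bases. In K11C4.6 this GTTC is not part of a B box and stays in lower case. W03C9.9 lies at chrII:11960813-11960907 (plus strand) and stands alone. C51F7.3 at chrV:12303623-12303717 (plus) lies in an intron of frm-7. T03F7.8 at chrV:11314173-11314267 (plus) lies opposite cutl-18. Y43F8C.22 at chrV:19643178-19643272 (minus) lies in an intron of Y43F8C.7, F55A11.10 at chrV:11782907-11783001 (plus) in one of F55A11.6, ZK546.18 at chrII:4942510-4942604 (minus) in one of mdt-4, and K11C4.6 at chrV:6888991-6889085 (plus) in one of unc-70.
W03C9.9: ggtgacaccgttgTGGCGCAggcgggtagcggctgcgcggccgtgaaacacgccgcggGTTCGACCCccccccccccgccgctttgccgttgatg
C51F7.3: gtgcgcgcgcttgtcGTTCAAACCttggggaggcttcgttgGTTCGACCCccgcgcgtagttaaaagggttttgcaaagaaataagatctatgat
T03F7.8: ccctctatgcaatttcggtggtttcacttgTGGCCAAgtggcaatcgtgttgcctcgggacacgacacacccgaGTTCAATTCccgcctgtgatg
Y43F8C.22: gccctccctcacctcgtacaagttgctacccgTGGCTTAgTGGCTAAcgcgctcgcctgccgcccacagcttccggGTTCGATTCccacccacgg
F55A11.10: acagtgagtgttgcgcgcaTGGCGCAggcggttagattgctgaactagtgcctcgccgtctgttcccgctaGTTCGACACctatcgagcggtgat
ZK546.18: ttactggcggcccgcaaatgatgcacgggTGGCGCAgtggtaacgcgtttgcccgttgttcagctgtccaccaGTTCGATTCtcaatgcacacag
K11C4.6: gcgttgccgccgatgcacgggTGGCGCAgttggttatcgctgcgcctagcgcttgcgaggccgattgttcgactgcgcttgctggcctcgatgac

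In the second set, capitals mark GCGGAAC and TGTCGG, words that recurred upstream of snRNA genes and of some snoRNA genes. The snoRNA gene ZK994.7 lies in an intron of pxn-1 at chrV:8500494-8500588 (plus strand), and C16D9.11 in an intron of rol-3 at chrV:8228960-8229054 (minus). The snRNA gene sup-6, a U1 snRNA gene, lies in F58G1.7 at chrII:12944958-12945052 (minus), and the snRNA gene W05B2.8 in an intron of dhc-4 at chrIII:10989594-10989688 (plus). The spliced leader gene sls-2.2 stands alone at chrII:5543513-5543607 (plus) and has neither word. B0250.19, a snoRNA gene in an intron of the ribosomal protein gene rpl-2 at chrV:20479924-20480018 (plus), had no region and is shown for contrast.
ZK994.7: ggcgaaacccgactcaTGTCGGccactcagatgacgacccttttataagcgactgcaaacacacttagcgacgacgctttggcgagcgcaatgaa
C16D9.11: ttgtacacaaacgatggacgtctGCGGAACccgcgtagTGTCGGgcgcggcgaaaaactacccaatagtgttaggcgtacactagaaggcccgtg
sup-6: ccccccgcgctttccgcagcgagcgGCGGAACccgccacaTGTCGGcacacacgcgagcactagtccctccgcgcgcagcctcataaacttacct
W05B2.8: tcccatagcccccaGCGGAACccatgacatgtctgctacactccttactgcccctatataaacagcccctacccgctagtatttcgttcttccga
sls-2.2: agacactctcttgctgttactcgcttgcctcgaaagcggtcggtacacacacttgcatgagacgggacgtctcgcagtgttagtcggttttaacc
B0250.19: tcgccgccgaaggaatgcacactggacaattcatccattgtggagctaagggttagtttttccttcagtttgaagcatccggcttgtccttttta

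The strongest regions of the set were among the strongest of the whole experiment. By the authors' score of region strength, a number on an unstated scale, 3 of the set's regions were in the top 10 of all nuclear regions and 12 were in the top 100. The set's median score was 117 (range 40.9 to 1518) against 64.7 for all nuclear regions. Among the reproducible regions the medians were 397 for the set and 293 for the whole list. Regions at tRNA genes, the most similar class, were taken within 300 bp where the set used 200 bp. They had 200 of 424 in the IDR list (47.2%, 42.5 to 51.9), with a median score of 359 among the 200. Regions within 200 bp of a protein-coding 5′ end, leaving out the set and the tRNA gene regions, had 648 of 4256 in it (15.2%, 14.2 to 16.3). The set's share thus lay above that at protein-coding 5′ ends, with intervals apart, and within reach of that at tRNA genes, with intervals that overlap.

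The highest score, 1518 at rank 5, belonged to a summit on chromosome V inside C51F7.4 and just upstream of C51F7.3, a pair of snoRNA genes within frm-7. It ranked 5 in replicate 1 and 6 in replicate 2. The next, W03C9.9, scored 1514 and ranked 9 and 4 in the replicates. ZK265.10, with neither kind of letters upstream, scored 1315 and ranked 12 and 14. T06C12.16 scored 1193 and ranked 40 and 10. All of these are annotated as snoRNA genes, and the ranks in both replicates were within the top 50.

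The fifth region was at an snRNA gene, W05B2.8, which scored 1081 and ranked 30 and 33. ZK994.7 in pxn-1, a peroxidasin gene, scored 1022 and ranked 33 and 54. T03F7.8 scored 980.1, with ranks of 25 and 91, and Y43F8C.22 scored 929.7, with ranks of 100 and 42. The last of the strongest 10, T02E1.9 and T19B4.8, scored 866 and 863. T02E1.9 ranked 66 and 115, and T19B4.8 ranked 154 and 50, so neither replicate ranked the whole group higher.

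**Figure D1:**
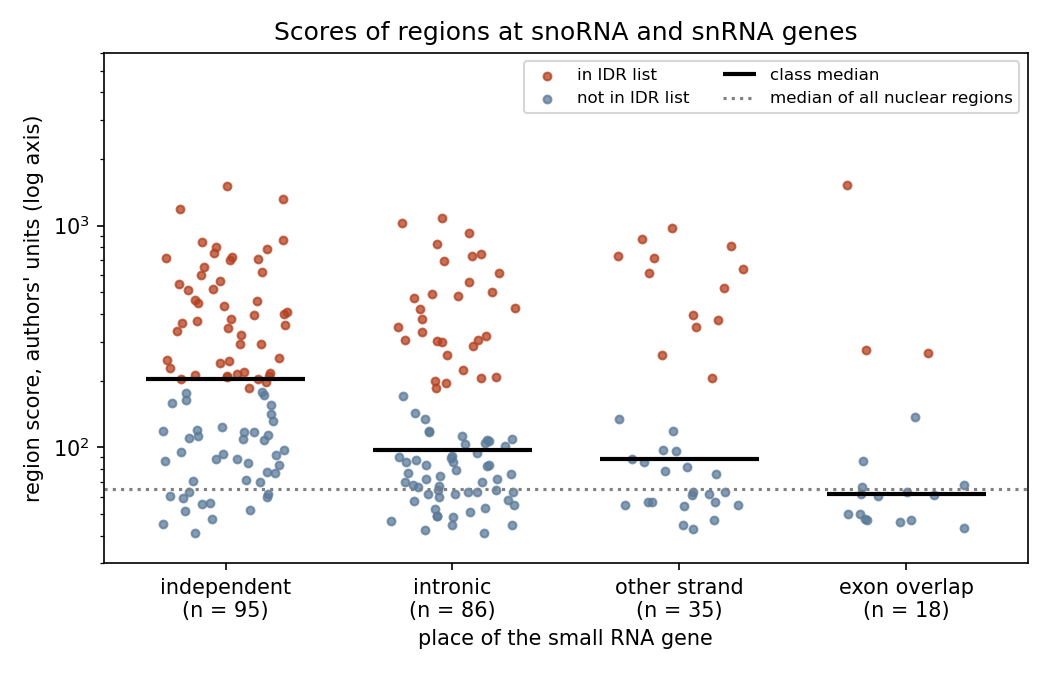
Each point is 1 region of the set, with its score in the authors' units on a log axis, split by where the small RNA gene lies; colour gives membership of the IDR list and black bars give class medians. Independent genes had the highest class median, 204, and regions of genes that overlap an exon had a median of 61.5, near the 64.7 of all nuclear regions.

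The annotation held 475 such genes, 346 snoRNA and 129 snRNA, and 474 remained after the gene sls-2.9, which lies close to a tRNA gene, was left out. Of the 474, 204 had at least 1 region within 200 bp and 94 had a reproducible summit (19.8%, 16.5 to 23.7), while 270 had no region. Over all annotated nuclear genes, 5.47% had a reproducible summit that close, and 6.86% of protein-coding genes did. The figure for all genes includes 15363 piRNA genes at 0.208%, and some noncoding classes were higher, with 9.79% of lincRNA, 10.4% of ncRNA and 34% of tRNA genes. The share was 23.1% (19.0 to 27.8) for snoRNA genes, 80 of 346, and 10.9% (6.63 to 17.5) for snRNA genes, 14 of 128, a share like that of ncRNA and lincRNA genes. In 6 genes, more than 1 reproducible summit lay close by, and 7 of the 234 regions lay within reach of several small RNA genes, so genes and regions are not independent of each other.

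Independent genes had a reproducible summit somewhat more often than intronic ones, with intervals that overlap. An independent gene touched no protein-coding gene, and an intronic one lay on its host's strand outside the host's exons. Of 185 independent genes 46 were called (24.9%, 19.2 to 31.6), and of 178 intronic genes 32 were called (18.0%, 13.0 to 24.3). Restricted to snoRNA genes, the shares were 38 of 124 (30.6%, 23.2 to 39.2) and 26 of 143 (18.2%, 12.7 to 25.3). Among snRNA genes they were 8 of 61 (13.1%, 6.80 to 23.8) and 6 of 35 (17.1%, 8.10 to 32.7), in the opposite order and with wider intervals. With any region at all, reproducible or not, independent and intronic genes did not separate, at 43.2% and 43.8%.

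Genes inside a protein-coding gene of the other strand gave 13 of 38 snoRNA genes (34.2%, 21.2 to 50.1). Of 27 snRNA genes so placed none was called (interval up to 12.5%), and 7 had a weaker region. Genes that overlap a host exon were called in 3 of 46 cases (6.52%, 2.24 to 17.5), close to the 5.47% of all genes. One of those 3 was C51F7.4, which shares the strongest summit with C51F7.3. Reproducible summits of the set were mostly away from protein-coding starts: the median distance to the nearest protein-coding 5′ end was 968 bp, 47 of 98 were over 1000 bp away and 10 were within 200 bp.

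**Figure D2:**
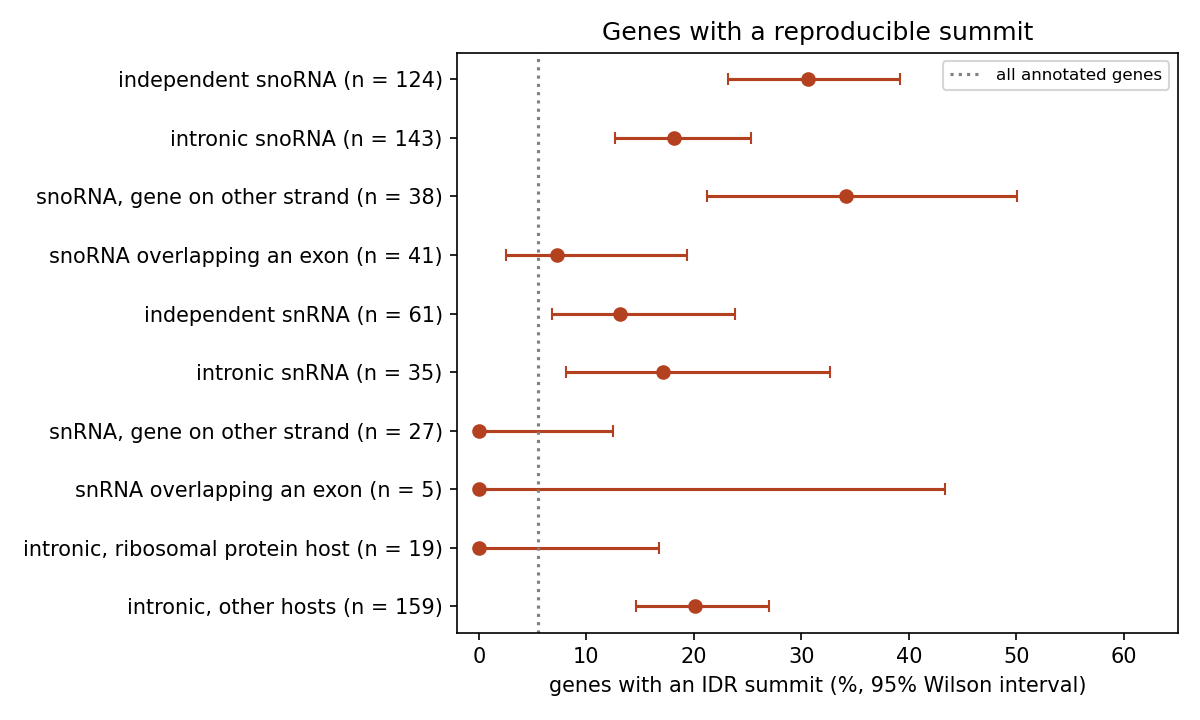
Points give the percentage of genes with a reproducible summit within 200 bp, bars the 95% Wilson interval, and the dotted line the 5.47% of all annotated genes. Independent, intronic and other-strand snoRNA genes lie to the right of the line with their whole intervals, and snoRNA genes of ribosomal protein hosts lie at 0 of 19.

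The 178 intronic genes lay in 152 hosts, of which 20 held several small RNA genes. Ribosomal protein genes, which host many of the intron-encoded snoRNAs of animals, held 19 of them in 13 hosts. Of the 19, 0 had a reproducible summit, with an interval up to 16.8% that includes the 5.47% of all genes. The 1 region found at them, at C16A3.11 in rps-13, scored 74.0 and had no summit within 200 bp in replicate 1. In all other hosts 32 of 159 intronic genes were called (20.1%, 14.6 to 27), so the intervals overlap. That group includes genes with the upstream letters described below, which none of the 19 has, and intronic snoRNA genes with neither kind of letters were at 6.31%. With 400 bp allowed between summit and gene, 3 of the 19 were called (15.8%). The comparison was not tested.

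The smaller host classes held few genes. The interval on a count of 0 of 4 reaches 49.0%, which includes the 18.0% of all intronic genes. All 4 small RNA genes in introns of nol-56, whose product is a core protein of snoRNA particles, were uncalled, and K07C5.18 and K07C5.12 there had weak regions with scores of 76.5 and 51.3. In hosts for splicing and RNA-binding proteins 0 of 4 were called. Y116A8C.50 in uaf-2 scored 71.9 and Y92C3B.4 in uaf-1 scored 44.6, both hosts encoding subunits of the splicing factor U2AF. In translation hosts 1 of 4 was called, T08B2.13 in fars-1, a phenylalanyl-tRNA synthetase gene, which scored 427 and ranked 787 and 675. Of 2 genes in hosts on a list of muscle genes, K11C4.6 was called. Its host unc-70 encodes a beta spectrin that is used in many tissues, so it is not specific to muscle. K11C4.6 scored 378 and ranked 953 and 914.

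Hosts known by a sequence name had 11 of 34 called (32.4%, 19.1 to 49.2), and other named hosts had 19 of 111 (17.1%, 11.2 to 25.2). The strongest of the former were Y43F8C.22, F55A11.10 with a score of 746, and Y38F2AR.14 in Y38F2AR.12 with 479. The strongest of the latter were C51F7.3, W05B2.8 and ZK994.7. Of 152 hosts, 18 had a reproducible summit within 200 bp of an annotated 5′ end (11.8%, 7.62 to 17.9), beside 3.61% of all protein-coding genes. A reproducible summit at a small RNA gene in an intron was found in 31 hosts. Of these 31, 2 had one within 200 bp of their 5′ end, F55A11.6 and cogc-3. In these 2, the summit at the small RNA gene itself lay 67 and 139 bp from a protein-coding 5′ end, so 1 summit may count for both.

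Summits of the reproducible regions lay mostly just upstream of the small RNA gene. Of 98, 61 were 1 to 100 bp upstream of the 5′ end (62.2%, 52.4 to 71.2), and 29 of them were 26 to 50 bp upstream. Of the 136 other regions, 42 were 1 to 100 bp upstream (30.9%, 23.7 to 39.1) and 56 lay over 100 bp downstream. Some of the 136 were second summits at genes that also had a reproducible one. Those of T19B4.8 and sls-2.4 lay 149 and 309 bp past the 5′ end. A summit could lie up to 200 bp beyond either end of a gene, so the eligible stretch was longer downstream of the 5′ end. The shares for randomly placed summits were not computed, and the contrast was not tested. The median summit of the reproducible regions was 30 bp upstream at independent genes and 23 bp upstream at intronic ones. Of 31 reproducible summits at intronic genes, 22 lay 1 to 100 bp upstream of the small RNA gene (71.0%, 53.4 to 83.9).

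The position differed by kind of RNA. At snoRNA genes the median reproducible summit was 34 bp upstream, and 57 of 82 were 1 to 100 bp upstream (69.5%, 58.9 to 78.4). At snRNA genes it was 56 bp past the 5′ end, and 4 of 16 were 1 to 100 bp upstream (25%, 10.2 to 49.5). The 16 include second summits of W05B2.8, C52E4.8 and F38E11.10, at 213, 177 and 103 bp past the 5′ end, so the median is not 1 value per gene. At the spliced leader genes sls-2.4 and sls-2.2, summits were 107 and 103 bp past the 5′ end, close to the 3′ end of these genes of 110 bp. At sls-2.7 the summit was 39 bp upstream. The summit of W05B2.8 was 13 bp past the 5′ end and that of sup-6 was 21 bp past it.

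**Figure D3:**
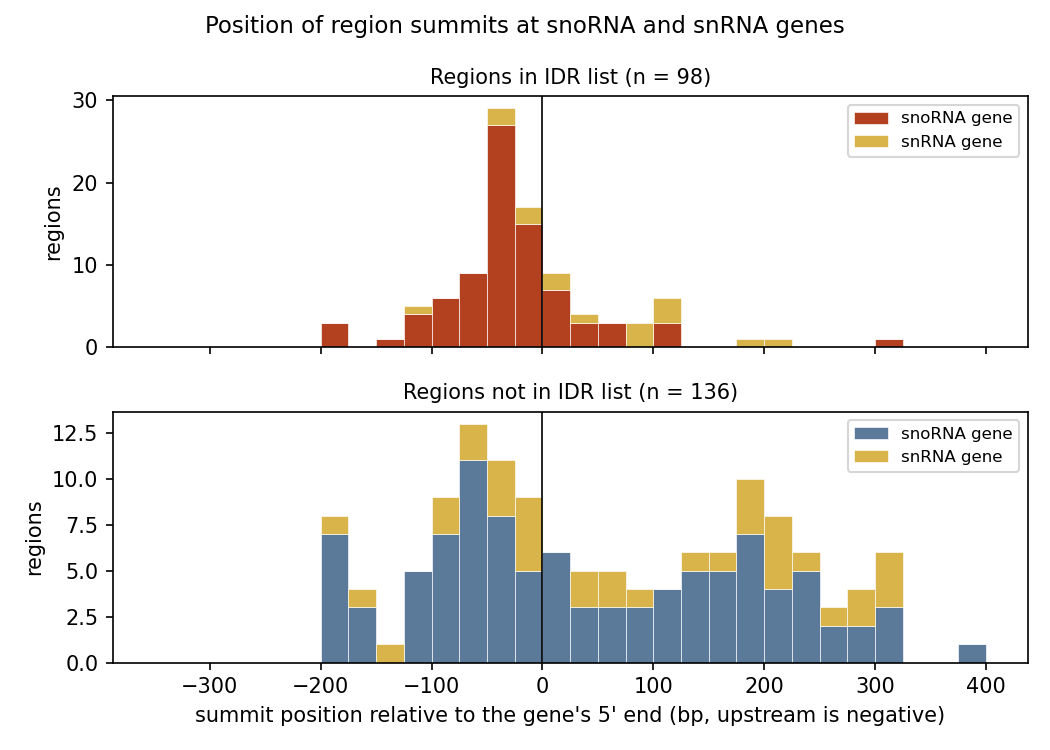
Histograms in bins of 25 bp give the distance of each summit from the 5′ end of its small RNA gene, negative upstream, for reproducible regions (top) and the others (bottom), with snoRNA and snRNA genes stacked. The tallest bin of the top panel, 26 to 50 bp upstream, holds 29 of 98 regions, and the bottom panel has no single peak.

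snoRNA genes with tRNA-like letters upstream had a reproducible summit more often than those without. In the 100 bp before the gene, on its strand, the B box was found in 34 of 475 small RNA genes (7.16%) against 1.43% of 19973 protein-coding genes. TGGCNNA followed by GTTC was found in 8.21% against 0.315%. The mean GC content of these windows was 45.4% for small RNA genes and 33.2% for protein-coding genes. Its part in these shares was not tested. Among the 48 snoRNA genes with either pattern, called tRNA-like boxes below, 34 had a reproducible summit (70.8%, 56.8 to 81.8), with a median top score of 522 over the 39 that had a region. Of 258 snoRNA genes with neither these boxes nor the snRNA-type words, 36 had one (14%, 10.3 to 18.7). Among snRNA genes, 2 had the boxes alone and 5 had the boxes and a snRNA-type word, and none of these had a region. The intervals on these counts of 0 reach 65.8% and 43.4%. The words TGGCNNA and TGTCGG were picked after the upstream sequences of called genes had been read, so these counts are descriptions. Of the 34 small RNA genes with the B box, which was not picked in this way, 25 were called (73.5%, 56.9 to 85.4). The mean GC content of the 100 bp was 53.6% upstream of called snoRNA genes and 40.6% upstream of those with no region, and its part was not tested.

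With the boxes, 12 of 15 independent snoRNA genes were called (80.0%, 54.8 to 93.0), 14 of 21 intronic ones (66.7%, 45.4 to 82.8) and 8 of 11 on the other strand (72.7%, 43.4 to 90.3). Without these boxes or the snRNA-type words, 21 of 87 independent snoRNA genes were called (24.1%, 16.4 to 34.1) 7 of 111 intronic ones (6.31%, 3.09 to 12.4) and 5 of 20 on the other strand (25%, 11.2 to 46.9). The intervals with and without the boxes were apart for independent and intronic genes and overlapped for those on the other strand. Since TGGCNNA was picked from sequences of called genes, such separation is partly built in, and no difference was tested. Only 1 gene that overlaps an exon had the boxes. The share of intronic genes with neither kind of letters was near the 5.47% of all genes. None of the 19 genes in ribosomal protein hosts held either pattern or either snRNA-type word.

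The median first base of the B box was 14 bp upstream of the snoRNA gene (quartiles 20 and 12 bp), with single boxes as far as 70 bp upstream. Of the 34 reproducible summits at genes with the boxes, 32 were 1 to 100 bp upstream, with a median of 38 bp. In W03C9.9, F55A11.10 and ZK546.18, printed above, the summit lay 84 bp upstream, 57 bp upstream and 2 bp past the 5′ end. No annotated tRNA gene lay within 300 bp of these summits, by the rule that chose them.

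Around the summits themselves, within 100 bp on both strands, a B box was found at 30 of 98 reproducible regions of the set (30.6%, 22.4 to 40.3) and at 11 of 136 others (8.09%, 4.58 to 13.9). It was found at 305 of the other 2848 reproducible regions (10.7%) and at 7.53% of all nuclear regions. The 2848 include the 200 reproducible regions at tRNA genes, of which 181 had a B box (90.5%). GAGAGAGA was at 2 of 98 (2.04%, 0.561 to 7.14) and at 16.7% of the other reproducible regions. It was at 4.41% of the set's other regions, 5.29% of all nuclear regions and 5.50% of reproducible regions at tRNA genes, and these shares lie within the set's interval. The CArG box, the site bound by serum response factors, was at 0 of 98, which leaves a Wilson interval up to 3.77%, beside 1.51% of the other reproducible regions, 2.90% of all nuclear regions and 3.68% of the set's other regions, which all lie within it. TATAAA was at 16.3%, about the 14.9% of all nuclear regions and the 15.4% of the set's other regions, where the other reproducible regions had it at 8.92%. CAGCTG was at 11.2% (6.38 to 19.0), beside 9.34% of the other reproducible regions and 5.41% of all nuclear ones. CTGTTTCA was at 0, beside 1.02% and 0.903%. The mean GC content of these windows was 48.4% for the reproducible regions of the set, 41.7% for its others and 45.5% for the other reproducible regions, and its part in the motif shares was not tested.

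GCGGAAC was the most frequent word of 7 letters before independent snRNA genes, at 14 of 62, next to GTGTTAG at 13, and was upstream of 11.8% of all small RNA genes against 0.160% of protein-coding genes. TGTCGG was upstream of 15.6% and 0.781%. GCGGAAC was picked as the most frequent word in part of these same windows, and TGTCGG after upstream sequences had been read. The excess of both words over protein-coding genes is thus partly built in. Many snRNA genes are near-identical copies, so their windows are not separate occurrences. GC content also differed, as given above. The first bases of GCGGAAC and TGTCGG lay at medians of 62 and 47 bp upstream. Of 40 snoRNA genes with either word, and without tRNA-like boxes, 10 were called (25%, 14.2 to 40.2), and of 57 such snRNA genes 8 were called (14%, 7.29 to 25.3). At the level of placement, 5 of 11 intronic snoRNA genes with a word were called (45.5%, 21.3 to 72.0), C16D9.11 and ZK994.7 among them. Intronic ones with neither kind of letters were at 6.31% (3.09 to 12.4), with intervals apart. No difference was tested. Of independent snoRNA genes with a word 5 of 22 were called (22.7%, 10.1 to 43.4), beside 24.1% of those with neither kind of letters. Of those on the other strand 0 of 7 were called, which allows a share of up to 42.9%.

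The spliced leader genes form a pair of families among the snRNA genes. SL2-type genes, which carry the leader added to downstream genes of operons, had 5 of 17 called (29.4%, 13.3 to 53.1) and 10 with a region. The strongest, sls-2.4, scored 783 with ranks of 111 and 140, and sls-2.2 scored 717 with ranks of 192 and 133. The 12 sls-1 genes, which make the SL1 leader, had no region at all. Those copies are near-identical repeats: none of the 12 had 90% of its 50-base words unique in the genome, and how the authors treated reads with several matches was not given. Their count of 0 (interval up to 24.2%) is therefore uncertain, and no difference between the families is shown.

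The same limit touches other snRNA genes. Of 128, 87 had under 90% unique words within 100 bp, against 29 of 346 snoRNA genes. Called shares were 10 of 87 (11.5%, 6.36 to 19.9) for the repeated snRNA genes and 4 of 41 (9.76%, 3.86 to 22.5) for the unique ones. Among snoRNA genes they were 2 of 29 (6.90%, 1.91 to 22) for the repeated and 78 of 317 (24.6%, 20.2 to 29.6) for the unique ones, and with any region 6.90% and 50.8%. W05B2.8 shares its annotated family name with 13 other genes. Of those 14 genes 3 were called, W05B2.8, C28A5.7 with a score of 330.3 and R07E5.16 with 195. The U1 snRNA genes sup-39 and sup-6, known for mutations that suppress a splicing defect, scored 301 and 298. The sup-39 summit also lay at mir-1831, annotated as snRNA inside it. The 12 SmY genes, whose RNAs are implicated in trans-splicing, are annotated as snRNA or, like smy-2, as snoRNA genes. Of them 1 was called, smy-2, scoring 199 and ranking 3261 and 2658. The region within 200 bp of smy-1, with a score of 93.9, was also within 200 bp of smy-2 and was assigned to smy-2.

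Protein-coding genes of the same particles were mostly without a reproducible summit at their starts. Of 30 listed genes for Sm, Lsm, snoRNA-particle and snRNA-activating proteins, 29 were found in the annotation, and 2 of them had a reproducible summit within 200 bp of a 5′ end (6.90%, 1.91 to 22), beside 3.61% of all protein-coding genes. They were fib-1, which encodes the methyltransferase fibrillarin, with a score of 687 at rank 184, and dkc-1, which encodes the pseudouridine synthase dyskerin, with 352 at rank 1056. Another 4 had a weaker region: rnp-2 (score 161), lsm-6 (152), snpc-1.1 (124) and snr-7 (72.8). The other Sm genes, from snr-1 to snr-6, had none.

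Most reproducible regions of the set ranked high in both replicates. Of the 98, 96 had a summit within 200 bp in both replicate lists, and 81 were in the top 2946 of both, the number of nuclear IDR regions. Spearman's rho between the ranks was 0.87 over the 96 regions, as a description, since the list was close to a cut on pooled score. Some regions in it ranked unlike: W01H2.11 ranked 12854 in replicate 1 and 1860 in replicate 2. F17C11.24 had no summit within 200 bp in replicate 2. For the 136 other regions, 75 had a summit in both lists, none was in the top 2946 of both and rho was 0.30. These contrasts between the 98 and the 136 follow in part from the cut on score and were not tested. Of the 96, 46 ranked better in replicate 1 and 50 in replicate 2, and of the 75 others 46 ranked better in replicate 1 and 29 in replicate 2.

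Some regions ranked in the top 1000 of 1 replicate only. The second summit of C26C6.13 ranked 10002 in replicate 1 and 695 in replicate 2, where it shared a summit with the first. C02F5.15, which overlaps an exon of rfs-1, ranked 878 and 5612 and was not in the IDR list. The second summit of W03C9.9 ranked 619 and 2637, that of W05B2.8 ranked 679 and 1142, and sup-39 ranked 2267 and 965. The weak second summit of T24H7.6, with a pooled score of 48.9, took rank 672 in replicate 1 from a neighbouring summit. T04A8.17, F30A10.16, Y23H5B.10, M7.15, Y53F4B.48, F07A11.15, ZK546.18, C28A5.7 and D2021.6 also crossed that line.

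**Figure D4:**
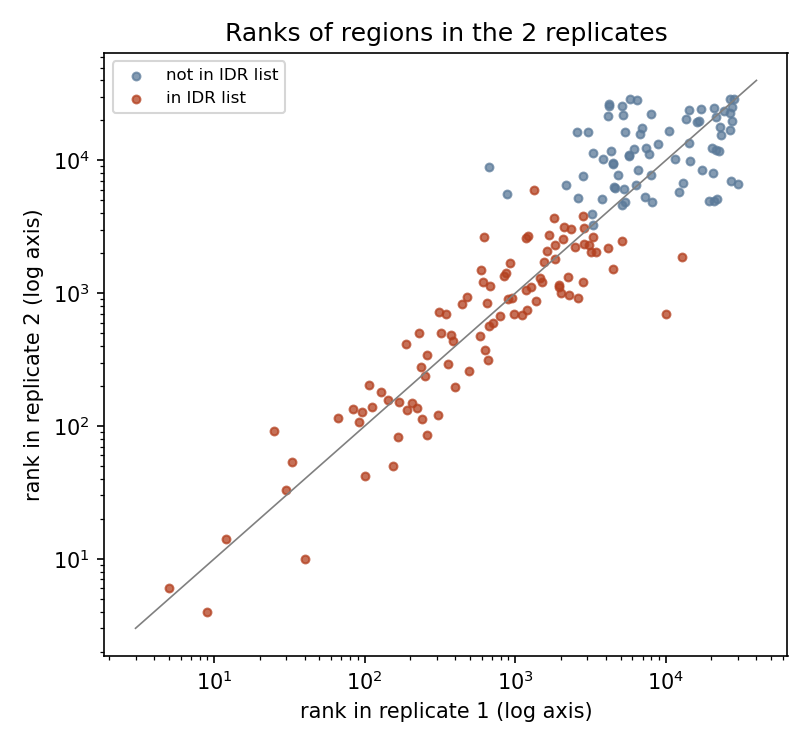
Each point is a region of the set with a summit in both replicate lists, placed by its rank in replicate 1 and in replicate 2 on log axes, and the line marks equal ranks. Reproducible regions follow the line (rho 0.87, 96 regions) and the others scatter (rho 0.30, 75 regions).

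At the IDR cut-off, T06D8.11 in plpr-1 and the second summit of C52E4.8 both scored 185 and lay just inside, at ranks 2930 and 2934. T08G5.11, with a score of 178, and the second summit of T19B4.8, with 175, lay just outside. T08G5.11 ranked 2548 in replicate 1 and had no summit close by in replicate 2. Among the 105 independent genes without a region, the first by name were C01B10.48 and C05G6.4.

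Called shares by chromosome had overlapping intervals and were not tested. They were 23.6% of 89 genes on I, 28.7% of 87 on II (20.3 to 39), 19.4% of 67 on III, 13.0% of 100 on IV (7.76 to 21.0), 18.9% of 95 on V and 11.1% of 36 on X (4.41 to 25.3). X held 4.08% of the set's reproducible regions, 7.59% of the small RNA genes and 22.6% of all reproducible regions. Reproducible regions of the set were also narrow more often: 55 of 98 were under 444 bp wide (56.1%), beside 52% at tRNA genes and 35% of all. Within the set the narrow regions were mostly those with high scores. The median scores of reproducible regions were 397, 359 and 293 in the same order, and widths were not compared at equal scores.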

How the data were processed

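UNC-120-GFP ChIP-seq in 2 biological replicates of 1 group was analysed from the authors' ce11 lists of regions. Per the listing deposited with the samples, these were ranked peaks and background for each replicate and for both pooled, and an IDR list. The deposited score of each region is the authors' own, on an unstated scale, and was used to describe and rank regions within a list. The programs for alignment and peak calling were not given in the sources used here. The 4 ce10 lists were not used.

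Genes came from Ensembl release 115 (WBcel235, the same assembly as ce11) and names and sequence from RefSeq, where all 475 genes were matched. A region was assigned to the gene within 200 bp whose 5′ end was nearest, and a gene counted as called when any reproducible summit lay within 200 bp. Genes within 300 bp of a tRNA gene were left out. Shares carry Wilson 95% intervals, and no test was made, since there is 1 group. Limits on counts of 0 are the upper ends of Wilson intervals. A replicate rank came from the nearest summit within 200 bp, so neighbouring summits can share one. The members and lists were chosen with earlier results of these data known. Genes named were those of the 10 highest scores, the top 2 of each named snRNA family and the top 3 of each host class, regions at the cut-off, those in the top 1000 of 1 replicate, and the first independent genes without a region. B0250.19 and other genes printed as sequence were chosen to show letters. The functions were checked on simulated summits. Software was matplotlib 3.10.9, pandas 2.3.3, scipy 1.17.1 and numpy 2.4.6 under Python 3.11.15.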

Additional observations from a re-analysis of the deposited data

Results flagged for a closer look

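The 1 region that the distance to tRNA genes removed lay 143 bp from the spliced leader gene sls-2.9 and on a tRNA gene; it had a score of 381, at rank 916, and was in the IDR list.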

How the results depend on the processing

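Of 81 values recomputed under 16 alternative settings, 77 stayed within the interval of the main value or within 1.5 times the main count. Counting 1 summit per 400 bp gave 48.7% of the set in the IDR list. Calling only the 1473 highest scores gave 29.5% of the set, 17.8% of independent genes called and 40.6% of reproducible regions with a B box. Leaving out either replicate, with the top 2946 regions of the other as called, gave 234 and 230 regions, 92 and 93 called, 39.3% to 40.4% of the set, 23.8% to 24.3% of independent genes, 16.9% of intronic genes, 0 of 19 in ribosomal protein hosts, and 31.2% to 33.7% with a B box. At 400 bp from summit to gene, 3 of the 19 genes in ribosomal protein hosts were called (15.8%). Of the 16 settings, 3 were chosen after seeing the data: genes of unique sequence gave 31.0% of independent and 18.5% of intronic genes, leaving out mir-1831 gave 17.5% of intronic genes, and TGGCNNA followed by GTTC was at 31.6% of reproducible regions. The median score was not recomputed on single replicates, whose scales differ. No paired analysis was possible because there is 1 group. Depth is unknown, so weak regions cannot be told from absent ones.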
